A study of Mus musculus with 18 samples.

Results

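The interferon regulatory factors (IRFs) and signal transducers and activators of transcription (STATs) examined here were Irf1, Irf2, Irf3, Irf5, Irf7, Irf9, Stat2, Stat3 and Stat6. These 9 genes were taken by their symbols from the 36172 rows of the deposited matrix, and all 9 were among the 14803 genes that passed the filter on low counts. RNA came from the brains of Cx3cr1-Cre/Ert2+; NuTRAP+ mice, in which tamoxifen induces an EGFP tag on ribosomes in cells that express Cx3cr1. In the brain these are mainly microglia, the resident macrophages, but macrophages at the borders of the brain express Cx3cr1 too. One hemisphere per mouse was homogenised, an aliquot was set aside as input, and tagged ribosomes with their bound RNA were captured from the rest by anti-GFP (translating ribosome affinity purification, TRAP) to give the positive fraction. The comparison asks how lipopolysaccharide (LPS), a Gram-negative bacterial product that Toll-like receptor 4 detects, changes RNA of the whole brain and of the tagged cells.

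Input PBS and Positive PBS each held 4 libraries from the same 4 mice (2 female, 2 male), which received vehicle (PBS) intraperitoneally. Input LPS and Positive LPS came from 5 mice (4 female, 1 male) given 5 mg/kg LPS by the same route. All mice, controls included, carried both transgenes, were about 3 months old when they received tamoxifen on 5 consecutive days, were injected 3 to 4 weeks later and were sampled 24 h after that. Each mouse is named by its animal number. The input library of LPS animal 271 held 1252 counts against 22968939 to 35123345 in the other 17, and it was left out, so Input LPS has 4 libraries and Positive LPS 5. Values are normalised counts, that is, deposited estimated counts divided by a size factor of 0.766 to 1.32 per library.

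IRFs and STATs turn pathogen and cytokine signals into transcription. IRF3, IRF5 and IRF7 wait in the cytoplasm until kinases downstream of Toll-like receptors and nucleic acid sensors phosphorylate them, and they then drive interferon and cytokine genes. Secreted type I interferon acts through its receptor and Janus kinases on STAT2, which with IRF9 and a further STAT forms ISGF3, the complex that binds interferon-stimulated response elements (ISREs). IRF1 and IRF2 bind the same kind of element, IRF1 as an activator and IRF2 largely as its antagonist, whereas STAT3 answers the IL-6 and IL-10 families and STAT6 answers IL-4 and IL-13.

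Because several of these genes are themselves interferon or cytokine targets, their promoters (RefSeq, GRCm38.p6, 250 bases before to 50 after the start) were searched on both strands for 3 short patterns. The ISRE core was GAAA, any 2 bases and GAAA, which 3.44% of 32851 mouse promoters hold. The STAT element (GAS) was TTC, any 3 bases and GAA, held by 8.30%, and the STAT6-type form, with 4 bases between, was held by 6.95%. RefSeq gave 11 promoters for the 9 genes. The 3 shown first are those that hold a pattern among the genes whose RNA rose in both fractions, and the promoter of Irf7 is shown as that of the gene with the largest LPS effect, with capitals marking each match.
Irf1, chr11:53769764-53770063, plus strand: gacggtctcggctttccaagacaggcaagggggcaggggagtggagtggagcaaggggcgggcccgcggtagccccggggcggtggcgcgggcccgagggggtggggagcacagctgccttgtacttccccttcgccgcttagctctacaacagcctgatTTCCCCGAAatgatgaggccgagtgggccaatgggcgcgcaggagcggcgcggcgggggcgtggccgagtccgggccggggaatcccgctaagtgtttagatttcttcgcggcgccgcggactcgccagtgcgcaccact
Irf9, chr14:55603735-55604034, plus strand: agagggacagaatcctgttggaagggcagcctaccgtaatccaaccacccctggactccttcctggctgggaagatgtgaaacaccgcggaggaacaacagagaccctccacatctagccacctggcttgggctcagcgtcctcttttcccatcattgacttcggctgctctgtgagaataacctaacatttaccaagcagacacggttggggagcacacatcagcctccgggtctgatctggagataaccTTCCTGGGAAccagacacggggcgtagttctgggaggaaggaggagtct
Stat2, chr10:128270248-128270547, plus strand: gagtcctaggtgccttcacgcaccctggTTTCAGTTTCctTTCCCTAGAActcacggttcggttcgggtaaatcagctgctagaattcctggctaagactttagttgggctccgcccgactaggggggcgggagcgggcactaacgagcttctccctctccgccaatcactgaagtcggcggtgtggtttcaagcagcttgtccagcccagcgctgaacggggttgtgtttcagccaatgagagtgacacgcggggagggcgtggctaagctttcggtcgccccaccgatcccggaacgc
Irf7, chr7:141266375-141266674, minus strand: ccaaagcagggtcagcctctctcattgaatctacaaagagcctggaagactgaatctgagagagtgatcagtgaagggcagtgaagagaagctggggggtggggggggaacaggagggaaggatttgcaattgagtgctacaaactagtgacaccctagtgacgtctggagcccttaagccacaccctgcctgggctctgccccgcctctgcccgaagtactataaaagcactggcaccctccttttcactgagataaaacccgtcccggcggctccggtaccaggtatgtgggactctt
The Irf1 promoter held a GAS from 90 to 82 bases upstream of the start. In the Irf9 promoter a STAT6-type element began on the base after the first transcribed one. The Stat2 promoter held an ISRE core 222 to 213 bases upstream, with a STAT6-type element 210 to 201 bases upstream. Irf2 also held an ISRE core, GAAAATGAAA, and a GAS, TTCCGAGAA. These letters were not in the windows of Irf3, Irf5, Irf7, Stat3 and Stat6. Irf1 and Irf9 each had a further promoter (chr11:53770223-53770522 and chr14:55604329-55604628), and neither of these held a pattern. A match is a description of the sequence, and binding was not measured.

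The tagged fraction carried the markers of its labelled cells. The summed level of 10 microglial markers was 10727 to 14004 normalised counts in Input PBS and 202328 to 248223 in Positive PBS, and all 10 were called higher in the positive fraction. Other cells remained represented. Summed neuronal markers were 142108 to 153713 in Input PBS and 125629 to 156820 in Positive PBS, and summed astrocyte markers 95035 to 105162 and 99241 to 149815. The astrocyte sum was mostly Slc1a2 (mean 59366 in Input PBS and 87728 in Positive PBS). Of the 6 astrocyte genes, Slc1a2 was called higher in Positive PBS (log2 0.56), and Aqp4 (-0.45) and Gja1 (-0.70) were called lower. Oligodendrocyte markers were lower in Positive PBS (21069 to 28612, against 93895 to 149054 in Input PBS), and endothelial markers higher (6189 to 9394, against 2281 to 3463). After LPS the microglial sum was 10049 to 14034 in input and 157069 to 217255 in the positive fraction, where 5 of the 10 markers were called lower (among them P2ry12, log2 -2.47, and Siglech, -1.77) and 2 higher. In input 4 were called lower and 2 higher. Summed oligodendrocyte markers were 60488 to 88027 in Input LPS, below every Input PBS library, with 5 of 6 genes called lower, and 18205 to 28046 in Positive LPS, with 2 called lower. Neuronal sums were 129708 to 142798 in Input LPS, with 0 of 6 genes called, and 96300 to 137574 in Positive LPS, with 4 called lower. Astrocyte sums were 89362 to 94481 in Input LPS, with 1 gene called higher and 1 lower, and 92832 to 106700 in Positive LPS, with 2 called lower. Endothelial sums were 3444 to 5223 in Input LPS and 5835 to 9709 in Positive LPS. Of the 7 endothelial genes, 2 were called higher and 1 lower in input, and 1 higher and 2 lower in the positive fraction. Neutrophil markers also moved with LPS. Their sum over 9 genes went from 157 to 482 in Input PBS to 482 to 1372 in Input LPS, and from 28.8 to 148 in Positive PBS to 321 to 968 in Positive LPS. Of these 9 genes, 5 were tested and all 5 were called higher after LPS in each fraction. Among the untested genes, mean Camp went from 6.85 to 6.68 in input and from 1.15 to 10.3 in the positive fraction. Mean Ltf went from 19.3 to 20.7 in input and from 3.10 to 3.08 in the positive fraction. The defining marker Ly6g was at 0 in every group and Elane at 0 in Input LPS and both positive groups. The 6 lymphocyte markers summed to at most 19.1 in any library. Summed border macrophage markers were 4423 to 8950 in Positive PBS and 3077 to 5385 in Positive LPS, and monocyte markers 1166 to 2888 and 595 to 1393. The part of these shifts in the results below was not tested, and in such bulk samples fewer cells of a type and less RNA per cell cannot be told apart.

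Most of these factors were higher after LPS, and none was called lower. A gene was called at an adjusted p under 0.05 (edgeR quasi-likelihood, adjusted over all 14803 genes) with an absolute log2 fold change over 0.32. In the positive fraction, 8 of the 9 genes were higher after LPS, all but Irf3, beside 19.0% of all genes tested called higher and 14.9% called lower. In input, 5 of the 9 were higher (Irf1, Irf7, Irf9, Stat2 and Stat3), beside 7.16% of all genes called higher and 5.26% lower. The median log2 fold change of the 9 genes was 0.52 in the positive fraction and 0.55 in input, against 0.01 and 0.00 over all genes tested. Every LPS library exceeded every PBS library for 7 of the 9 genes in the positive fraction and for 5 in input, an order that 17.1% and 12.6% of all genes showed.

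**Figure D1:**
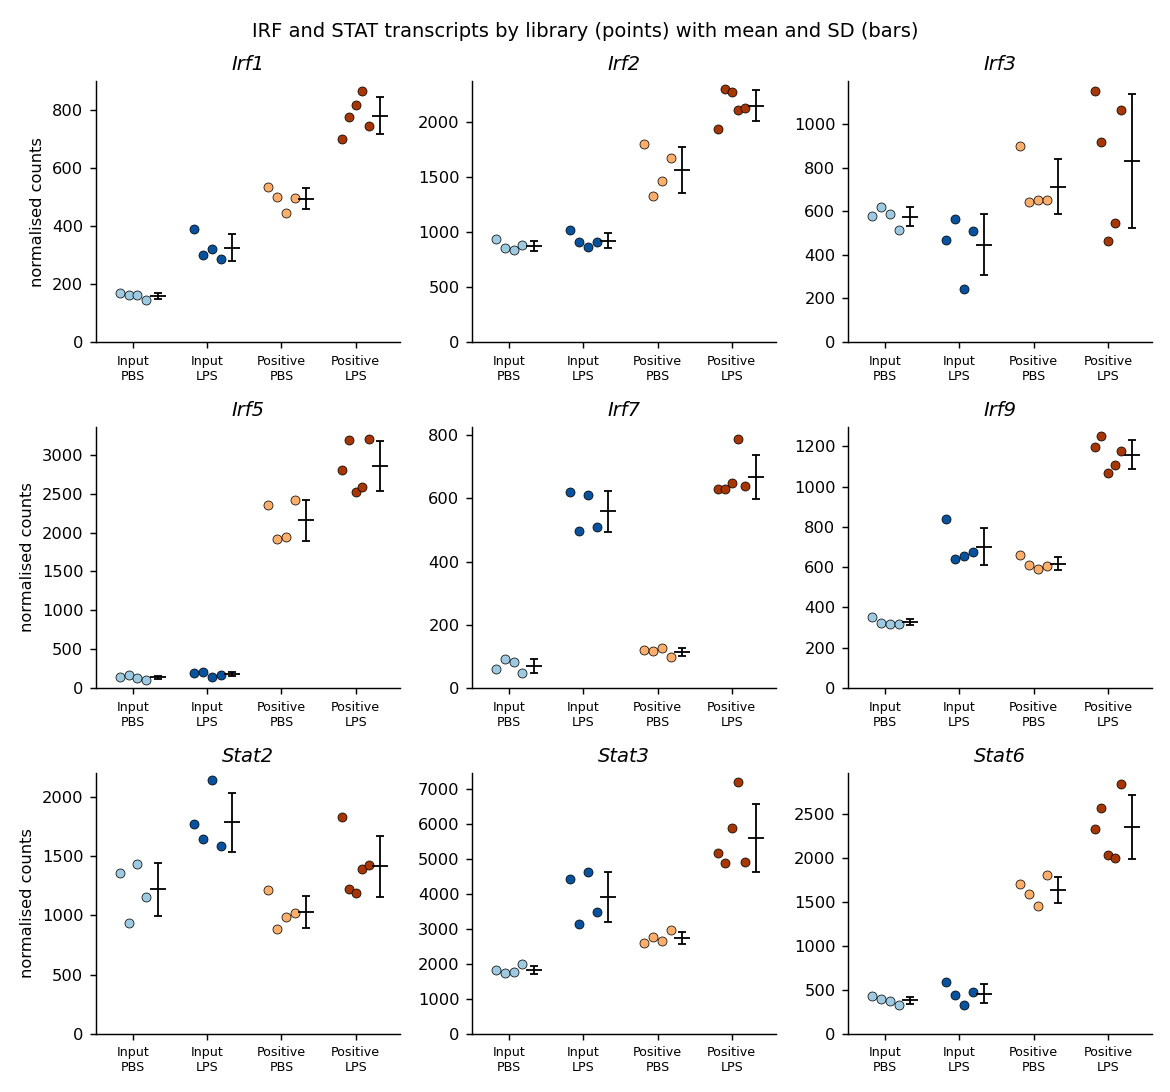
Normalised counts of each gene (vertical axis, from 0, scaled per gene) in the 4 groups. Points are libraries (4, 4, 4 and 5) and bars give the mean and SD. Irf7 stands at 46.4 to 125 in all PBS libraries and 498 to 789 in all LPS libraries, whereas Irf5 and Stat6 separate mainly by fraction.

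Irf7 (Entrez ID 54123, chr7:141263183-141266424, minus strand, mm10), often called the master regulator of type I interferon responses, had the largest LPS effect of the 9. Over PBS animals 268, 272, 273 and 506, in this order here and below, input held 58.5, 91.8, 80.9 and 46.4 normalised counts. Over LPS animals 266, 267, 270 and 507, again in this order throughout, input held 621, 498, 609 and 509. The LPS and PBS inputs were far apart, with no overlap. Irf7 rose 8.07-fold in input (log2 fold change 3.01 ± 0.17 SE, adjusted p = 3.64e-09). Positive PBS held 121, 118, 125 and 96.8, and Positive LPS, over animals 266, 267, 270, 271 and 507, held 630, 630, 647, 789 and 638. The other 4 Positive LPS libraries were nearly equal, and animal 271 stood above them. Irf7 rose 5.77-fold in the positive fraction (log2 2.53 ± 0.16, adjusted p = 2.40e-09). Within LPS mice, every positive library exceeded every input library, though narrowly (630 against 621), an order that 25.2% of all genes showed.

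The ISGF3 subunit Irf9 (ID 16391, chr14:55603985-55610030, plus strand) roughly doubled in both fractions. Input PBS held 350, 324, 318 and 320 normalised counts, and Input LPS held 840, 638, 655 and 675. PBS libraries were nearly equal, and all LPS inputs exceeded them. The rise in input was 2.14-fold (log2 1.10 ± 0.10, adjusted p = 4.16e-07). In the positive fraction the PBS libraries held 662, 609, 592 and 605 and the LPS libraries 1197, 1250, 1067, 1105 and 1178. These groups did not overlap either, and the rise was 1.88-fold (log2 0.91 ± 0.09, adjusted p = 4.84e-07). The range of the log2 fold change over fits that left out 1 library was 1.00 to 1.14 in input and 0.89 to 0.94 in the positive fraction.

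Its partner Stat2 (ID 20847, chr10:128270576-128292849, plus strand) changed less and varied more between animals. Input PBS held 1358, 932, 1438 and 1154 normalised counts, and Input LPS held 1772, 1649, 2144 and 1589. All LPS inputs lay above the PBS inputs, of which animal 272 was the lowest. Stat2 rose 1.47-fold in input (log2 0.55 ± 0.15, adjusted p = 0.0177). Positive PBS held 1211, 888, 987 and 1020, and Positive LPS held 1829, 1226, 1191, 1393 and 1429. Here PBS animal 268 lay above LPS animal 270, so the groups overlapped. The rise in the positive fraction was 1.38-fold (log2 0.46 ± 0.14, adjusted p = 0.0155). Both calls depended on single libraries. The call in the positive fraction was lost without Positive PBS 272 (log2 0.40, adjusted p = 0.0587), and the call in input without Input LPS 270 (0.45, adjusted p = 0.0714), Input PBS 272 (0.44, adjusted p = 0.0669) or Input PBS 506 (0.52, adjusted p = 0.0513).

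Irf3 (ID 54131, chr7:44997648-45002848, plus strand), which is activated by phosphorylation of protein already present, was the only one of the 9 called in neither LPS comparison. Input PBS held 580, 619, 589 and 513 normalised counts, and Input LPS held 469, 562, 243 and 509. The LPS inputs ran lower but overlapped the PBS inputs, and animal 270 stood well below the rest. The log2 fold change in input was -0.37 ± 0.26 (adjusted p = 0.389). Positive PBS held 901, 644, 653 and 653, and Positive LPS held 1151, 919, 465, 547 and 1063. The LPS libraries spread to both sides of the PBS libraries, animal 270 again being the lowest. In the positive fraction the log2 fold change was 0.22 ± 0.25 (adjusted p = 0.510). The SE of Irf3 was the largest of the 9 genes in both comparisons, so a change of moderate size was not detectable with these libraries.

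Irf5 (ID 27056, chr6:29526625-29537320, plus strand), a driver of inflammatory cytokine genes in macrophages, was the factor most concentrated in the tagged fraction. Input PBS held 140, 163, 132 and 105 normalised counts, and Input LPS held 190, 209, 147 and 170. These groups overlapped, since LPS animal 270 lay below PBS animal 272. Positive PBS held 2359, 1913, 1942 and 2415, and Positive LPS held 2801, 3186, 2520, 2581 and 3205. In this fraction every LPS library exceeded every PBS library. Irf5 rose 1.33-fold in the positive fraction (log2 0.41 ± 0.12, adjusted p = 0.0112). In input the fold was also 1.33 (log2 0.41 ± 0.14) but was not called (adjusted p = 0.0668). That call was gained with DESeq2 (adjusted p = 0.0429), without Input LPS 270 (log2 0.49, adjusted p = 0.0387) and without Input PBS 272 (0.51, adjusted p = 0.0353).

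Irf1 (ID 16362, chr11:53770014-53778374, plus strand), an interferon-gamma responsive activator, rose in both fractions. Input PBS held 169, 164, 161 and 145 normalised counts, and Input LPS held 392, 299, 321 and 288. The inputs did not overlap, and Irf1 rose 2.04-fold (log2 1.03 ± 0.11, adjusted p = 5.72e-06). Positive PBS held 537, 502, 447 and 496, and Positive LPS held 702, 777, 819, 865 and 746. Again all LPS libraries were higher, and the rise was 1.58-fold (log2 0.66 ± 0.10, adjusted p = 7.48e-05).

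Its antagonist Irf2 (ID 16363, chr8:46739745-46847458, plus strand) rose in the positive fraction. Positive PBS held 1795, 1326, 1459 and 1670 normalised counts, and Positive LPS held 1940, 2298, 2268, 2107 and 2125. The highest PBS library lay below the lowest LPS library, and the rise was 1.37-fold (log2 0.46 ± 0.09, adjusted p = 4.01e-04). In input the PBS libraries held 938, 852, 835 and 882 and the LPS libraries 1015, 907, 862 and 907. These overlapped and were close in level. The log2 fold change in input was 0.07 ± 0.09 (adjusted p = 0.649).

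**Figure D2:**
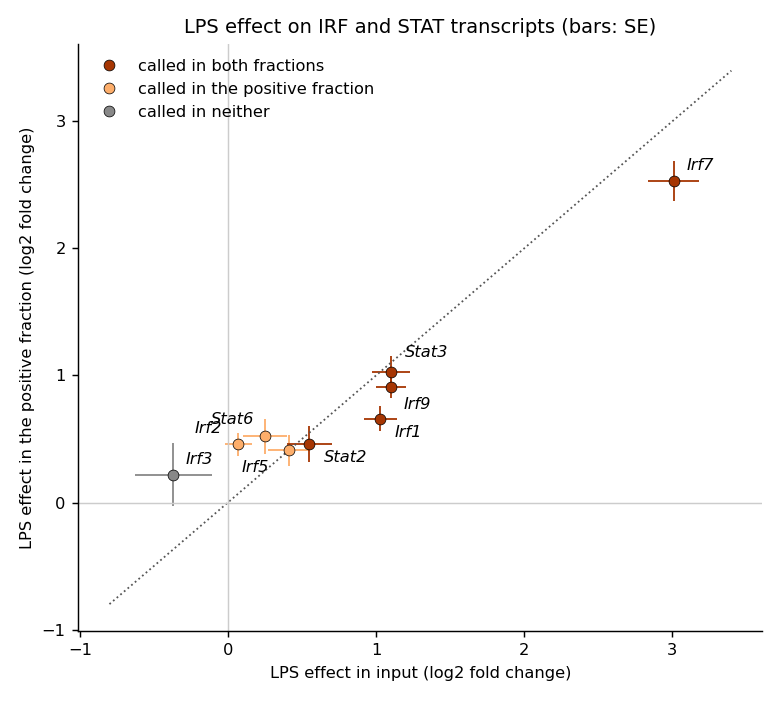
LPS effect as log2 fold change in input (horizontal) against the positive fraction (vertical), with SE bars, 1 point per gene. The dotted line marks equal effects. Irf7 lies far out at 3.01 and 2.53, Irf1, Irf9 and Stat3 lie between 0.66 and 1.10, and Irf3 is the point to the left of 0 in input.

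Stat3 (ID 20848, chr11:100886810-100939511, minus strand), the factor of IL-6-type cytokines and of the acute-phase response, about doubled in both fractions. Input PBS held 1814, 1723, 1763 and 1979 normalised counts, and Input LPS held 4413, 3132, 4614 and 3491. PBS inputs were tight and LPS inputs spread wider, with no overlap. The rise in input was 2.15-fold (log2 1.10 ± 0.13, adjusted p = 9.83e-06). Positive PBS held 2592, 2775, 2636 and 2972, and Positive LPS held 5162, 4874, 5873, 7184 and 4896. All LPS libraries were higher, animal 271 the most. The rise was 2.04-fold (log2 1.03 ± 0.12, adjusted p = 3.67e-06).

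Stat6 (ID 20852, chr10:127642986-127660987, plus strand), the factor of IL-4 and IL-13, was concentrated in the tagged fraction and rose there. Its gene overlaps Nab2 on the opposite strand, and the libraries were stranded. Positive PBS held 1696, 1591, 1456 and 1797 normalised counts, and Positive LPS held 2321, 2566, 2027, 1990 and 2839. These groups did not overlap, and the rise was 1.44-fold (log2 0.52 ± 0.14, adjusted p = 0.00604). Input PBS held 424, 398, 373 and 327, and Input LPS held 584, 436, 322 and 473. In input LPS animal 270 was the lowest of all, and the groups overlapped. There the log2 fold change was 0.25 ± 0.15 (adjusted p = 0.297).

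Most of the 9 factors were denser in the positive fraction than in input. In PBS mice 7 of 9 were called higher, beside 21.0% of all genes. In LPS mice 7 were called higher and 1 lower, beside 27.6% and 25.8% of all genes. The median log2 difference of the 9 genes was 0.83 in PBS and 0.89 in LPS, against -0.00 and -0.03 over all genes. Irf5 led with 16.0-fold in either treatment (log2 4.00 ± 0.15 in PBS, adjusted p = 2.56e-13, and 4.00 ± 0.14 in LPS, adjusted p = 1.58e-13), beside a median of 4.29 in PBS for the 10 microglial markers. Stat6 followed with 4.29-fold in PBS and 5.18-fold in LPS (log2 2.10 ± 0.15, adjusted p = 2.70e-09, and 2.37 ± 0.15, adjusted p = 2.31e-10). Irf1 was 3.11-fold higher in PBS and 2.41-fold in LPS, and Irf2 1.78-fold and 2.33-fold (adjusted p from 1.46e-09 to 7.49e-07).

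The remaining factors were spread more evenly between the fractions. Irf9 was 1.88-fold higher in the positive fraction in PBS and 1.65-fold in LPS (adjusted p = 4.61e-07 and 2.09e-06), and Stat3 1.51-fold and 1.43-fold (adjusted p = 0.00103 and 0.00133). Irf7 was 1.67-fold higher in PBS (log2 0.74 ± 0.18, adjusted p = 0.00232), whereas in LPS its log2 difference was 0.25 ± 0.15 (adjusted p = 0.142). Its LPS libraries did not overlap between the 2 fractions, but 25.2% of all genes showed this order. Irf3 was called in LPS (log2 0.89 ± 0.25, adjusted p = 0.00540), and in PBS its log2 difference was 0.31 ± 0.26 (adjusted p = 0.352). In a fit with animal as a term, which pairs the fractions, the PBS difference was 0.30 ± 0.11 (adjusted p = 0.0308). It was not called there only because it lay under the fold threshold of 0.32. The LPS difference of Irf3 in that fit was 1.00 ± 0.11 (adjusted p = 2.55e-06). Stat2 was the one factor with the higher level in input. Its log2 difference was -0.25 ± 0.15 in PBS (adjusted p = 0.182) and -0.34 ± 0.14 in LPS, where it was called lower (adjusted p = 0.0436). This last call rested on its margin. It was lost with TMM scaling (-0.32, adjusted p = 0.0610) and, among other settings, without Input LPS 270 (-0.24, adjusted p = 0.161).

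Both libraries of an animal could be set against each other in 4 PBS and 4 LPS mice. For Irf3 the log2 ratio of positive to input was 0.63, 0.06, 0.15 and 0.35 in PBS mice and 1.29, 0.71, 0.94 and 1.06 in LPS mice. The LPS ratios were all higher, although the counts of Irf3 in either fraction overlapped between treatments. The low animal 270 was low in both fractions, and its ratio lay among those of the other LPS mice. For Irf2 the ratio was 0.94, 0.64, 0.80 and 0.92 in PBS and 0.94, 1.34, 1.39 and 1.23 in LPS. The LPS ratios were thus higher, apart from animal 266, which stood level with the highest PBS mouse. Irf7 and Irf1 went the other way. The Irf7 ratio was 1.04, 0.37, 0.63 and 1.06 in PBS and 0.02, 0.34, 0.09 and 0.33 in LPS, again without overlap. The Irf1 ratio was 1.47 to 1.77 in PBS and 0.84 to 1.38 in LPS. The share of all genes whose ratios separate the treatments in this way was not counted, so these orders have no background beside them.

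Whether the LPS effect differed between the fractions was tested directly, as the difference of the 2 log2 fold changes. None of the 9 genes was called in the fit without animal as a term, beside 6.88% of all genes. At an unadjusted p under 0.05 there were 3, namely Irf1 (difference -0.37 ± 0.15, adjusted p = 0.179), Irf2 (0.38 ± 0.13, adjusted p = 0.0785) and Irf7 (-0.48 ± 0.23, adjusted p = 0.250), and DESeq2 called 0. Input and positive libraries of an animal are paired samples, and with the replicate block, that is, animal as a term, 2 of the 9 were called, beside 12.9% of all genes in the same fit. Irf3 had a difference of 0.70 ± 0.15 (adjusted p = 0.00844) with the block, against 0.59 ± 0.36 (adjusted p = 0.410) without it. Irf2 had a difference of 0.40 ± 0.11 (adjusted p = 0.0332) with the block. In this paired fit Irf7 gave -0.56 ± 0.18 (adjusted p = 0.0510) and Irf1 -0.40 ± 0.15 (adjusted p = 0.0962). For Irf5 the difference was -0.00 (adjusted p = 0.999) without the block and 0.04 (adjusted p = 0.905) with it.

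**Figure D3:**
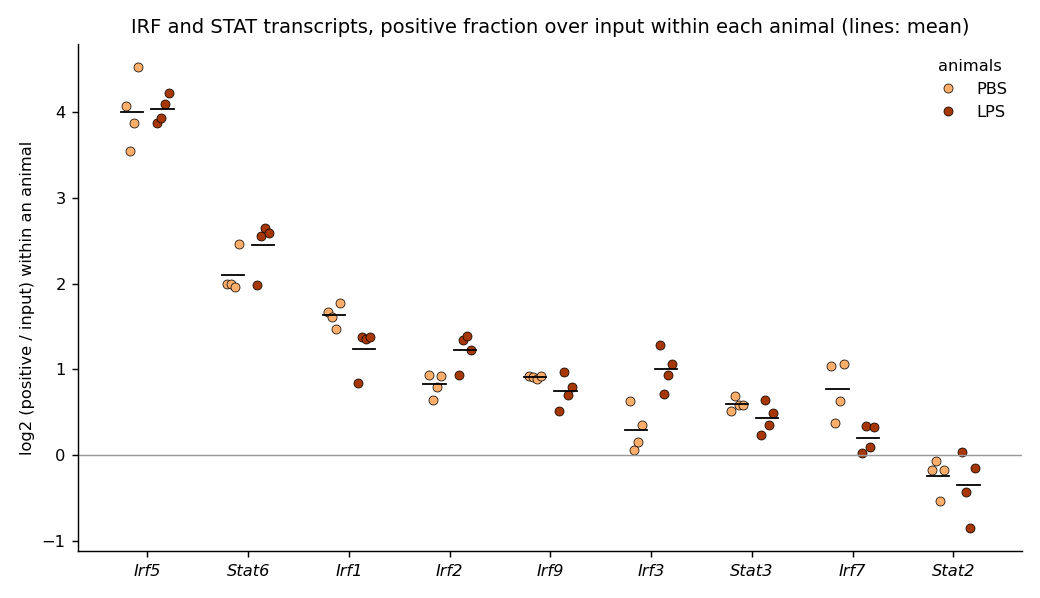
Log2 ratio of the normalised count in the positive fraction to that in input of the same animal (vertical axis), for 4 PBS and 4 LPS mice per gene, ordered by the mean, with lines at group means. Irf5 stands near 4.00, Stat2 has both means below 0 and 1 LPS mouse at 0.04, and the LPS mice lie above the PBS mice for Irf3 and below them for Irf1 and Irf7.

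Levels of different genes were compared per kilobase of exon (exon lengths from GENCODE vM21, which are not the gene models the authors counted on). In Positive PBS, Irf5 was the most abundant with 815 ± 101 normalised counts per kb (SD, n = 4). It was followed by Irf2 with 626 ± 84.0, while Stat3 and Stat6 (441 ± 27.5 and 433 ± 38.6) did not differ beyond their spread. Irf7 was last with 48.2 ± 5.28 per kb. After LPS, Irf5 (1080 ± 123, n = 5), Stat3 (899 ± 156) and Irf2 (860 ± 57.4) led the positive fraction, each within the spread of its neighbour, and Irf7 reached 279 ± 28.7. In Input PBS the order began with Irf2 at 351, and Stat3, Stat2 and Irf3 followed at 292, 278 and 263, the latter 3 within their spread, with Irf5 (50.9 ± 9.07) and Irf1 (47.9 ± 3.11) near the end. In Input LPS, Stat3 was first with 628 ± 115 per kb. There Irf7 moved from last place to the fourth (234 ± 27.0), at a level that did not differ from those of Irf9 (226 ± 30.1) and Irf3 (204 ± 64.2) beyond the spread.

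For each factor the 3 genes with the most similar pattern were sought by Pearson's r of log2(normalised count + 1) over the 17 libraries, among 12600 genes. These correlations describe libraries that share animals, fractions and treatment. Irf5 was closest to Tyrobp, Plcg2 and Cyth4 (r of 0.998, 0.997 and 0.997) and, among the other 8 factors, to Stat6 (0.988). Stat6 was closest to Lcp1, Snx20 and Slc7a7 (0.993, 0.993 and 0.992), and Irf2 to Rbm47, Afap1l1 and Sla (0.993, 0.991 and 0.987). Irf1 was closest to H2-D1, Tapbp and Tnfrsf1a (0.993, 0.991 and 0.987). Irf9 was closest to Usp18, Icam1 and Ctla2b (0.989, 0.984 and 0.981), Irf7 to Hspb6, Ifit1 and Hspb1 (0.981, 0.976 and 0.972), and Stat3 to Igtp, Irgm1 and Pttg1ip (0.978, 0.972 and 0.968). The highest values were smaller for Irf3 (Ccdc22, Cyb5r4 and Mrpl24, 0.942, 0.935 and 0.932) and Stat2 (Col5a3, Osgepl1 and Map3k7, 0.933, 0.929 and 0.926).

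Genes that act upstream of the factors were followed as lists, whose counts stand beside the shares of all genes given above (positive fraction 19.0% higher and 14.9% lower, input 7.16% and 5.26%). The ligands that feed ISGF3 and IRF1 were hardly measured. None of the 8 interferon genes in the matrix passed the filter, the highest group mean being 1.21 normalised counts for Ifng in Positive PBS, the means of Ifna1, Ifna2, Ifna4, Ifna5, Ifne and Ifnk were at most 0.870, and Ifnb1 was at 0 in both input groups, 0.272 in Positive PBS and 0.649 in Positive LPS. Of 12 cytokines that signal through STAT3 or STAT6, 4 were tested. Osm, a ligand of the IL-6 family, rose in the positive fraction from 53.5 ± 6.21 to 111 ± 26.6 (log2 1.04, adjusted p = 0.00376), and Clcf1 fell by 1.05 on the log2 scale (adjusted p = 0.0340). The Clcf1 call was lost without any 1 of Positive PBS 268, 272 and 506 or Positive LPS 270, 271 and 507 (log2 -1.11 to -0.78, adjusted p = 0.0502 to 0.133). None of these 4 was called in input. The interferon receptor chains Ifnar1, Ifnar2 and Ifngr2 rose modestly in the positive fraction (log2 0.42, 0.41 and 0.34, adjusted p = 4.27e-05, 8.96e-04 and 0.0106), Ifngr1 was at 0.27 (adjusted p = 0.124), and none of the 4 was called in input.

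Of 14 tested receptors for STAT3 and STAT6 cytokines, 4 rose and 1 fell in the positive fraction, not far from the shares of all genes, and in input 5 rose and 0 fell. The shared gamma chain Il2rg (log2 2.81, and 1.81 in input), the oncostatin M receptor Osmr (2.52 and 2.79) and the IL-4 receptor Il4ra (1.67 and 1.18) rose in both. Il11ra1 rose in the positive fraction (0.36), and the G-CSF receptor Csf3r fell there (-0.91, against -0.22 in input, not called). Il6ra (0.86) and Il13ra1 (0.93) rose in input and were at 0.17 and -0.23 in the positive fraction. The other 7, Il6st, Lifr, Cntfr, Lepr, Il10ra, Il10rb and Il21r, were called in neither, with log2 values from -0.42 to 0.19 in the positive fraction. Among the Janus kinases, which phosphorylate the STATs, Jak1, Jak2 and Jak3 were at 0.05, 0.11 and -0.00 in the positive fraction, and Tyk2 rose (0.48, adjusted p = 0.0467). The Tyk2 call was lost in 17 of 27 alternative fits, 11 of them with a single library left out (0.39 to 0.48, adjusted p = 0.0537 to 0.139), and no kinase was called in input.

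Of 20 genes that activate IRF3, IRF5 and IRF7 (sensors, adaptors and kinases), 13 rose and 1 fell in the positive fraction and 9 rose in input. The IRF kinase Ikbke went from 23.8 ± 5.61 to 1032 ± 514 normalised counts in the positive fraction (log2 5.43, adjusted p = 9.34e-08) and rose by 2.71 in input. The nucleic acid sensors Zbp1 (3.87) and Ifih1 (1.53) and the Toll-like receptor adaptor Myd88 (1.47) also rose in the positive fraction. The cytosolic DNA pathway adaptor Tmem173, also called STING, was the gene that fell (-0.65, adjusted p = 0.0103), and it was at 0.53 in input (adjusted p = 0.149). Among 17 inhibitors of these pathways 5 rose in the positive fraction, beside 19.0% of all genes, and input showed 4, beside 7.16%. The STAT3 feedback inhibitor Socs3 (3.56), the interferon receptor inhibitor Usp18 (2.13) and the phosphatases Ptpn6 (1.66) and Ptpn1 led. Ptpn1 went from 3658 ± 199 to 8390 ± 1236 normalised counts in the positive fraction (adjusted p = 2.26e-08), and its log2 fold change was 0.14 in input (adjusted p = 0.366).

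Known targets of ISGF3, IRF1 and STAT3 rose in nearly every case. Of 22 ISGF3 targets, 21 rose in the positive fraction and 20 in input, with median log2 fold changes of 1.73 and 1.76. Oasl1 (3.93), Zbp1 (3.87), the antiviral GTPase Mx1 (3.02) and Rtp4 (2.49) led in the positive fraction. Of 19 tested IRF1 targets, 17 rose and 1 fell in the positive fraction and 18 rose and 1 fell in input (medians 1.80 and 2.20). The chemokines Cxcl10 (6.10) and Cxcl9 (3.97) and the guanylate-binding proteins Gbp2 (3.35) and Gbp6 (3.04) rose most, and Ciita, which drives MHC class II genes, fell in both (-1.44 and -1.41).

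Of 18 STAT3 targets, 17 rose in the positive fraction and 15 in input (medians 1.63 and 1.49). The acute-phase gene Saa3 went from 639 ± 251 to 51915 ± 19061 normalised counts in the positive fraction (log2 6.35). Lcn2 (6.30), Timp1 (4.65) and Serpina3n (3.81) followed. In input Timp1 rose by 4.66 and Serpina3n by 4.40. In LPS mice both were called lower in the positive fraction than in input (log2 -0.62 and -0.57), whereas Saa3 and Lcn2 were called higher (3.28 and 1.33). This list holds genes of other cells too. Gfap, the astrocyte filament, rose by 1.95 in the positive fraction and 2.07 in input, at 6276 ± 783 and 7408 ± 668 normalised counts in the 2 PBS groups. Of 14 tested STAT6 targets, 5 rose and 3 fell in the positive fraction and 4 rose and 1 fell in input, with medians of 0.11 and 0.50. The 5 called in input became 8 with DESeq2 or with only the input libraries in the fit, 9 with sex as a term and 3 without animals 506 and 507. The chemokines Ccl22 (4.40) and Ccl17 (3.21) rose, whereas the lectin Cd209a (-3.84) and Ccl24 (-2.01) fell. Of 6 border macrophage markers, 4 were called lower in Positive LPS, whereas Cd163 (log2 0.15) and F13a1 (-0.16) were not called. Among these 4 was Mrc1 (-1.33), which is also 1 of the 3 STAT6 targets that fell, so the 2 lists share it. In input 0 of the 6 were called, and their sum was 373 to 529 in PBS and 417 to 576 in LPS. Cd209a fell there too (-3.67, from 12.2 to 0.897 normalised counts), and Ccl24 was not called (-0.45). Any link between these falls and border macrophages was not tested. Several genes stand in more than 1 list, and the counts are not independent.

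**Figure D4:**
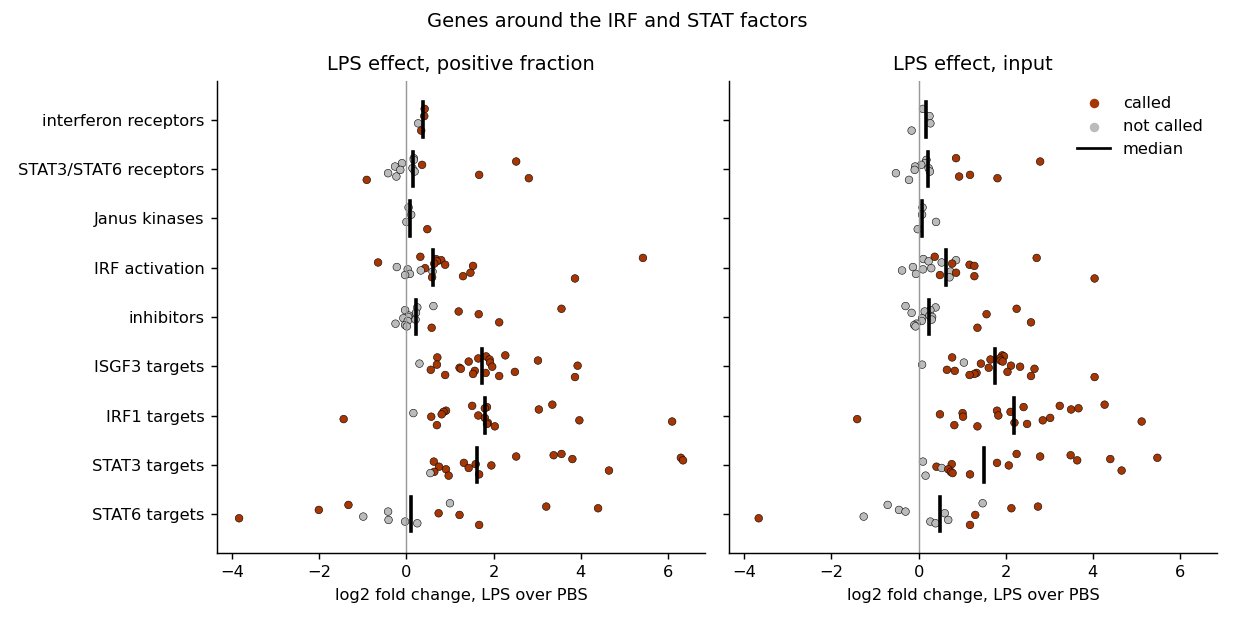
LPS effect (log2 fold change, horizontal axis) of every tested gene in 9 lists around the factors, in the positive fraction (left) and input (right). Dark points were called, grey points were not, and black lines mark list medians. ISGF3, IRF1 and STAT3 targets lie mostly to the right of 0, with medians from 1.49 to 2.20, while receptors and Janus kinases have medians from 0.08 to 0.38.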

How the data were processed

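RNA from input and positive TRAP fractions of 9 mice was sequenced from stranded, poly(A)-selected libraries. After trimming and strand-aware alignment to mm10 in Strand NGS, the authors deposited estimated counts for RefSeq genes, and 81.6% of the nonzero values were not whole (tolerance 1e-06). They also deposited log2 values, used here in 1 alternative only, which were scaled with DESeq size factors over all 18 libraries and set relative to the Input PBS median. All 18 columns were mapped to samples by their titles.

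Estimated counts were rounded and scaled by DESeq-type size factors from 15766 genes in 17 libraries. Genes with over 20 normalised counts in every library of at least 1 group were kept (14803). edgeR 4.0.16 (R 4.3.3) quasi-likelihood tests used 1 mean per group (13 residual degrees of freedom), with Benjamini-Hochberg adjustment over all genes tested. The input and positive libraries of an animal deviated together (r of 0.162 to 0.519 in 8 animals), and the same animals underlie both fractions, so a fit with animal as a term was set beside it. Animal as a term serves the comparisons between fractions and the difference of the LPS effect. It cannot estimate the LPS comparisons, which lie between animals, so the replicate block took another form for these. Alternatives were DESeq2 1.42.0, TMM scaling, no filter, another filter, the replicate block, sex as a term, other sets of libraries, limma 3.58.1 on the deposited log2 values, and each library left out in turn. The tests were first run on simulated data. A level of 0 allows up to 3 counts in a library, for counting error only. The 9 genes and all lists were chosen with earlier results of these data known. Named are the 9 genes, the interferon ligands, receptors and kinases, up to 4 called genes per other list by the size of the change in the positive fraction, and the 3 genes most alike each factor (minimum mean 100 normalised counts). Tmem173, Ciita and Gfap were added after their values were seen, as were Slc1a2, Aqp4, Gja1, Camp, Ltf, Mrc1, Cd163 and F13a1 from the marker lists. The list of further family members is not reported here.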

Additional observations from a re-analysis of the deposited data

Results flagged for a closer look

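Each of the 9 genes was examined in each of the 4 groups, 36 groups of values in all, for a library that stood apart by Dixon's criterion, which chance meets in about 1 group in 20. It was met in 2. Irf3 in Positive PBS 268 stood at 901 normalised counts, against 644 to 653 in the other 3 libraries, and the gap took up 0.962 of the group's range. The animal's input library held 580 counts of Irf3, within the range of the other PBS inputs. Irf7 in Positive LPS 271 stood at 789, against 630 to 647 in the other 4, with a gap of 0.895 of the range. The input library of animal 271 is the nearly empty one, so that animal has no input value of Irf7 here. Causes were not tested.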

How the results depend on the processing

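Of 45 results (9 genes in 5 comparisons), 36 kept direction and call under all 27 alternatives (26 for the difference between fractions, which needs all 4 groups), 17 of which left out 1 library. The number of genes called for a difference of the LPS effect between fractions moved from 0 to 2 with the replicate block (Irf2 and Irf3, beside 12.9% of all genes, against 6.88% without it), and was 0 to 1 when single libraries were left out, Irf2 being called without Positive PBS 268 (0.46, adjusted p = 0.0355). The block changed no other call of the 9 genes. Called genes numbered 7 to 8 (LPS, positive), 4 to 5 (LPS, input), 7 (fractions, PBS) and 7 to 8 (fractions, LPS) over the left-out libraries. Stat2 lost 3 calls without animals 506 and 507, whose labels are numbered apart from the others: in the positive fraction (0.45, adjusted p = 0.0732), in input (0.58, adjusted p = 0.0869) and between fractions in LPS (-0.40, adjusted p = 0.0776). The last was lost in 13 of 27 alternatives. The Irf5 difference between fractions, near 0, changed sign with TMM scaling (0.01), the block (0.04), without animals 506 and 507 (0.09), when size factors used all 18 libraries (0.02) and on the log2 values as deposited (0.02), and ranged from -0.10 to 0.10 over left-out libraries. Over these the Stat2 difference ranged from -0.19 to 0.02 and the Stat3 difference from -0.18 to 0.01. The cause was not tested. Scaling with all 18 libraries or the deposited log2 values moved the median of all genes between fractions to between -0.11 and -0.14, against -0.00 and -0.03. Of 22 list counts, 5 moved by over 1.5 times under some alternative, namely cytokines in both fractions, interferon receptors and STAT6 targets in input, and Janus kinases in the positive fraction. With 4 or 5 animals per group, small changes of variable genes such as Irf3 were not detectable.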
